A study of Mus musculus with 8 samples.

Results

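Expression of the AMPA and NMDA receptor subunit genes was examined in the dorsal and ventral medial entorhinal cortex (MEC) of the mouse. The 10 genes were the members of the Gria family, Gria1 to Gria4, and of the Grin family, Grin1, Grin2a to Grin2d and Grin3a, matched by gene symbol among the 38553 genes of the deposited RNA-Seq table. All 10 were found and all 10 reached the level required for testing. The mice were 13 males of the strain C57BL/6JolaHsd, 8 weeks old, for which the labels give no transgene or treatment. Dorsal and ventral MEC were dissected from a 400 µm sagittal slice of each mouse, and tissue from the 3 or 4 mice of a group was pooled by region, giving 4 dorsal and 4 ventral libraries. Values are FPKM, fragment numbers corrected for the length of a gene's exons and for sequencing depth, so that levels of different genes can be compared.

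The libraries are referred to here by their column headers. Averaging D1 and D2 with V1 and V2 gave the first condition mean of the deposited comparison, the dorsal one, for 21861 of the 21876 genes with both means above 0, within 0.1%, and averaging D3 and D4 with V3 and V4 gave the ventral one. The next best of the 70 possible assignments matched 1273 genes. In 4 of the 8 libraries the header therefore contradicts the region, and the regions used here rest on this match of values. That the first condition is dorsal was read from a dataset with labelled regions, whose means were matched for 1435 of 1435 genes. With the regions that the headers name, Gria1 and Gria4 took the opposite sign and were not called (limma adjusted p = 0.971 and 0.955). Relative depth, estimated on genes whose mean FPKM was below 0.1, was 0.834 to 1.22 of the median library, and the total depth is not given here. Since the tissue is bulk, fewer cells of a type and less RNA per cell cannot be told apart. Cell type markers were read in the same libraries. The summed FPKM of 6 oligodendrocyte markers was 808 to 1074 in dorsal and 447 to 586 in ventral libraries, and 6 of the 6 were D>V (higher in dorsal). That of 5 glutamatergic neuron markers was 278 to 311 and 246 to 291, of 6 astrocyte markers 314 to 319 and 313 to 358, of 5 microglial markers 36.7 to 38.6 and 39.9 to 44.2, and of 4 endothelial markers 19.1 to 22.0 and 13.5 to 19.3, and no gene of these lists was called by limma, while 3 astrocyte, 2 microglial and 2 endothelial markers had an unadjusted p below 0.05. Of all genes tested, 16.0% had an unadjusted p below 0.05. Oligodendrocyte precursor markers summed to 37.2 to 40.7 in dorsal and 33.7 to 36.3 in ventral libraries (1 of 5 D>V). Dorsal and ventral means were 19.6 and 14.3 FPKM for Olig1, the gene called, and 4.21 and 3.65 FPKM for Olig2. They were 8.32 and 9.99 FPKM for Pdgfra, 1.13 and 1.47 FPKM for Cspg4 and 5.83 and 5.99 FPKM for Gpr17. Markers of somatostatin and VIP interneurons summed to 527 to 672 and 606 to 802 FPKM (1 of 5 D>V, 2 of 5 V>D). Cck, at 454 and 460 FPKM, made up most of this sum. Sst rose from 109 to 220 FPKM and Calb2 from 0.785 to 3.16 FPKM, while Npy fell from 18.4 to 9.08 FPKM. Of the 3 layer II markers, Wfs1 was D>V and Calb1 was V>D. The cerebellar markers Gabra6 and Barhl1 and the dentate marker Dsp had mean FPKM below 1, and Fibcd1, a CA1 marker, was V>D. The cerebellar marker Cbln1 was not low, at 17.5 ± 1.27 FPKM in dorsal and 21.3 ± 1.66 FPKM in ventral libraries. The dentate marker Prox1 was 4.48 ± 0.491 and 3.49 ± 0.462 FPKM, and neither Cbln1 nor Prox1 was called. The part of these shifts in the subunit values was not tested.

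AMPA and NMDA receptors are the ionotropic glutamate receptors that carry most fast excitatory transmission in the cortex. AMPA receptors are tetramers of the subunits GluA1 to GluA4, encoded by Gria1 to Gria4, and open within milliseconds of glutamate binding. NMDA receptors combine the obligatory GluN1 subunit, encoded by Grin1, with GluN2 subunits, encoded by Grin2a to Grin2d, or GluN3 subunits. They require glutamate together with glycine or D-serine, are blocked by magnesium at rest and pass calcium. The GluN2 subunit sets how long the channel stays open and how strongly magnesium blocks it. In the MEC, the stellate cells of layer II show electrical properties that change from dorsal to ventral, and excitatory synaptic input is among the properties studied along this axis.

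The subunits encoded by Gria1 to Gria4 differ in calcium permeability at a single pore position, the Q/R site. The 4 genes all encode glutamine there. In Gria2 the glutamine codon is converted in the RNA to one read as arginine by the adenosine deaminase ADAR2, the product of Adarb1, and receptors that contain the edited subunit pass little calcium. The genomic codon and its surroundings are shown because editing at this site sets Gria2 apart from the other Gria genes, and because Adarb1 is among the genes called below. Each window holds the last 45 bases of its exon, 5′ to 3′ on the coding strand of the mouse genome (GRCm38, GENCODE M21 transcripts), with the codon of the Q/R site in capitals. Each was found as the single in-frame run of the codons ATG, CAN, CAN and GGN, where N is any base, in the coding sequence.
Gria1: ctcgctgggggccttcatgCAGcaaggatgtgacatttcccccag
Gria2: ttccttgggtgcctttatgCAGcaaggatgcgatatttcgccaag
Gria3: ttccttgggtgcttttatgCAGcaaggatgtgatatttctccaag
Gria4: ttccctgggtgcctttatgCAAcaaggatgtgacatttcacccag
The windows lie at chr11:57243075-57243119 on the plus strand for Gria1 (codon 600, exon 11 of 16), at chr3:80706888-80706932 on the minus strand for Gria2 (codon 607, exon 11 of 16), at chrX:41610246-41610290 on the plus strand for Gria3 (codon 612, exon 11 of 16), and at chr9:4464114-4464158 on the minus strand for Gria4 (codon 608, exon 12 of 17). Of the 45 bases, 42 in Gria3, 39 in Gria4 and 36 in Gria1 equal those of Gria2. The codon is CAG in Gria1, Gria2 and Gria3 and CAA in Gria4. FPKM sums the fragments of a gene and does not report the editing of these codons.

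The subunit genes spanned a wide range of levels, and their order was nearly the same in all libraries. Gria2 was the most abundant in each of the 8 libraries, at 192 to 238 FPKM. It was followed by Gria3 at 79.4 to 115 FPKM, Grin2b at 64.1 to 87.2 FPKM, Grin1 at 53.0 to 69.9 FPKM, Gria4 at 40.3 to 56.9 FPKM and Gria1 at 37.2 to 51.0 FPKM. Lower levels were measured for Grin2a at 17.3 to 26.5 FPKM, Grin3a at 15.2 to 19.2 FPKM, Grin2c at 1.65 to 2.30 FPKM and Grin2d at 0.689 to 1.84 FPKM. Among neighbours in this order, the ranges over the 8 libraries were separate only for Gria2 and Gria3, Gria1 and Grin2a, and Grin3a and Grin2c. Within libraries the order was firmer, since every pair of neighbours kept it in 8 of 8 libraries except for Grin2b above Grin1, which held in 7 of 8, and Gria4 above Gria1, which held in the 4 dorsal libraries and in 1 of the 4 ventral libraries.

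**Figure D1:**
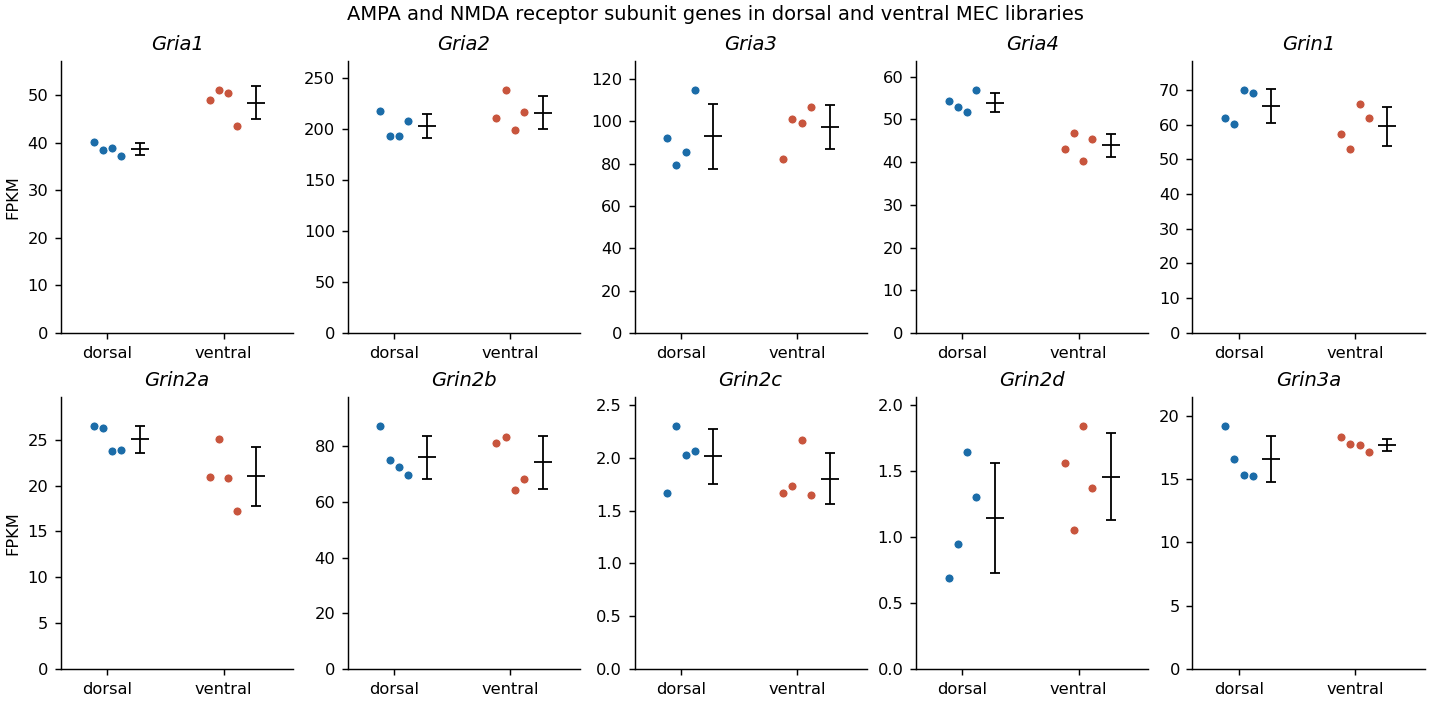
FPKM of each of the 10 subunit genes (y axis, from 0, with its own scale in each panel) in the 4 dorsal and 4 ventral libraries (x axis). Points are libraries in the order D1, V1, D2, V2 and D3, V3, D4, V4, and the bars beside them are mean ± SD. The regions are separate only for Gria1, higher in ventral, and Gria4, higher in dorsal.

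To ask which subunit genes differ between the regions, limma was applied to log2(FPKM + 1) of the 4 dorsal and 4 ventral libraries, and a gene was called at an adjusted p below 0.05 and a difference in mean FPKM of more than 20%. Gria1 was higher in ventral MEC (V>D), Gria4 was higher in dorsal MEC (D>V), and the other 8 subunit genes did not pass the test. Of the 13674 genes tested, 3.60% were called, 2.15% as D>V and 1.45% as V>D. Libraries of the regions did not overlap for 2 of the 10 subunit genes, Gria1 and Gria4, beside 11.1% of all genes tested. The median log2(V/D), in which V and D are the mean FPKM of the regions, was 0.02 over the 10 subunit genes and −0.01 over all genes tested, and 5 of the 10 were positive and 5 negative. The median size of this ratio regardless of sign was 0.15 for the subunit genes and 0.11 for all genes.

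**Figure D2:**
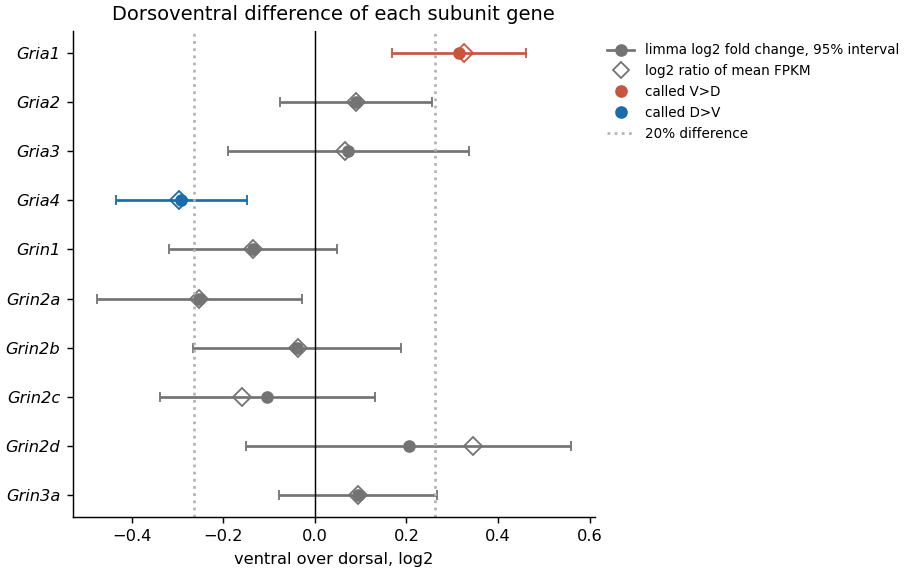
Difference between regions for each subunit gene on a log2 scale (x axis, positive where ventral is higher). Filled points are limma fold changes on the log2(FPKM + 1) scale with 95% intervals, open diamonds are log2 ratios of mean FPKM, and dotted lines mark a 20% difference. The intervals of Gria1, Gria4 and Grin2a leave out 0, and only Gria1 (V>D) and Gria4 (D>V) were called after adjustment.

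Among the AMPA receptor genes, Gria1 encodes GluA1, a subunit whose delivery to synapses is regulated in several forms of plasticity. Gria1 (ENSMUSG00000020524, chr11:57011387-57330244, plus strand, GRCm38) was measured at 40.2, 38.4, 39.0 and 37.2 FPKM in the dorsal libraries D1, V1, D2 and V2 and at 49.0, 51.0, 50.4 and 43.4 FPKM in the ventral libraries D3, V3, D4 and V4. Each ventral library lay above each dorsal library, and V4 lay closest to the dorsal values. The mean rose from 38.7 ± 1.24 FPKM in dorsal to 48.5 ± 3.47 FPKM in ventral MEC (SD, n = 4 pools each), a log2(V/D) of 0.33. The limma fold change was 0.32 with a 95% interval of 0.17 to 0.46 (adjusted p = 0.0265). The call was lost when any of D1, V1, D2, V2, D3, V3 or D4 was left out, with limma adjusted p between 0.0521 and 0.0875, and was kept without V4 (adjusted p = 0.0150). It was also lost when the libraries were rescaled to the same total FPKM (log2 fold change 0.34, limma adjusted p = 0.0965).

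Gria4 encodes GluA4, a subunit of fast-gating AMPA receptors that is prominent in parvalbumin interneurons. Gria4 (ENSMUSG00000025892, chr9:4417899-4796234, minus strand) was measured at 54.3, 52.8, 51.7 and 56.9 FPKM in the dorsal libraries D1, V1, D2 and V2 and at 43.2, 46.8, 40.3 and 45.4 FPKM in the ventral libraries D3, V3, D4 and V4. All dorsal libraries lay above all ventral libraries. The mean was 53.9 ± 2.25 FPKM in dorsal and 43.9 ± 2.80 FPKM in ventral MEC (SD, n = 4 each), a log2(V/D) of −0.30. The limma fold change was −0.29 with a 95% interval of −0.43 to −0.15 (adjusted p = 0.0347). This call was lost without any of D1, V1, D2, V2, D3, D4 or V4, with limma adjusted p between 0.0560 and 0.107, and was kept without V3 (adjusted p = 0.0322). It was lost after rescaling to the same total FPKM (log2 fold change −0.27, limma adjusted p = 0.0926).

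Markers of parvalbumin interneurons moved in part with Gria4. The summed FPKM of 5 such markers was 81.0 to 87.3 in dorsal and 67.5 to 74.3 in ventral libraries. Pvalb, which encodes the calcium-binding protein parvalbumin, fell from 15.7 ± 2.15 FPKM in dorsal to 6.63 ± 0.961 FPKM in ventral MEC. Syt2, a synaptotagmin of their terminals, fell from 7.60 ± 0.717 to 3.02 ± 0.407 FPKM. Tac1 moved the other way, from 3.88 ± 0.629 to 7.93 ± 0.728 FPKM. The potassium channel genes Kcnc1, with a log2(V/D) of −0.33, and Kcnc2, with 0.25, were not called. Kcnc1, at 34.7 and 27.7 FPKM in dorsal and ventral MEC, and Kcnc2, at 22.2 and 26.5 FPKM, made up most of the sum. All 5 markers had an unadjusted limma p below 0.05, beside 16.0% of all genes tested. The 4 measured markers of GABAergic neurons in general summed to 140 to 143 FPKM in dorsal and 138 to 150 FPKM in ventral libraries. By limma 0 of the 4 were called, and 2 had an unadjusted p below 0.05. These 2 went opposite ways within the sum. Gad1 fell from 60.9 ± 1.85 FPKM in dorsal to 54.9 ± 3.49 FPKM in ventral MEC, and Gad2 rose from 62.2 ± 1.63 to 68.5 ± 3.98 FPKM. The part of parvalbumin interneurons in the Gria4 values was not tested.

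Gria2, whose product makes the receptor poorly permeable to calcium once edited, was measured at 217, 193, 192 and 208 FPKM in the dorsal libraries D1, V1, D2 and V2 and at 210, 238, 199 and 216 FPKM in the ventral libraries D3, V3, D4 and V4. The regions overlapped. The limma fold change was 0.09 with a 95% interval of −0.08 to 0.26 (adjusted p = 0.636). Gria3 encodes GluA3, which in the cortex assembles mainly with GluA2, and was measured at 92.2, 79.4, 85.5 and 115 FPKM in D1, V1, D2 and V2 and at 82.3, 101, 99.2 and 107 FPKM in D3, V3, D4 and V4. Its spread between pools was wide in both regions, with a limma fold change of 0.07 and a 95% interval of −0.19 to 0.34 (adjusted p = 0.831). For Gria2 the interval leaves out a difference of 20% in either direction, and for Gria3 it does not.

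**Figure D3:**
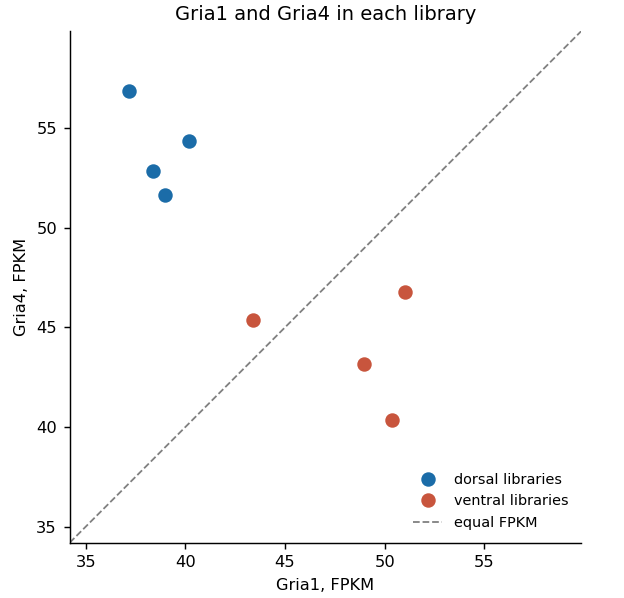
FPKM of Gria4 (y axis) against FPKM of Gria1 (x axis) in each of the 8 libraries, with a dashed line at equal values. The 4 dorsal libraries lie above the line at Gria1 values of 37.2 to 40.2 FPKM, while 3 of the 4 ventral libraries lie below it and V4 lies just above.

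The summed expression of the AMPA receptor subunit genes overlapped between the regions. The sum of the 4 Gria genes was 388 ± 26.1 FPKM in dorsal and 405 ± 23.8 FPKM in ventral MEC. Gria2 made up 52.2% ± 1.71 of this sum in dorsal and 53.2% ± 1.68 in ventral libraries, and Gria3 made up 23.9% ± 2.53 and 24.0% ± 2.14. The share of Gria4 was 13.5% to 14.5% in dorsal and 10.4% to 11.2% in ventral libraries, which did not overlap. The share of Gria1 was 8.93% to 10.6% in dorsal and 10.5% to 13.0% in ventral libraries, so that the lowest ventral library, V4, was within the dorsal range.

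Ratios within a library do not depend on how libraries are scaled to each other, and 8 of them were tested by exact permutation of the 8 libraries, two-sided, for which the smallest possible p is 0.0286. Gria4/Gria2 was 0.250, 0.274, 0.269 and 0.274 in the dorsal libraries D1, V1, D2 and V2 and 0.205, 0.197, 0.203 and 0.210 in the ventral libraries D3, V3, D4 and V4. All ventral values lay below all dorsal values, with means of 0.267 ± 0.0112 and 0.204 ± 0.00554 and a log2 difference of −0.39 (exact permutation p = 0.0286, 0.152 after adjustment over the 8 ratios). Gria1/Gria2 was 0.191 ± 0.0112 in dorsal and 0.225 ± 0.0228 in ventral libraries, a log2 difference of 0.23 (exact permutation p = 0.0571, adjusted 0.152). Gria3/Gria2 was 0.458 ± 0.0644 and 0.452 ± 0.0531 (exact permutation p = 1). None of the 8 ratios passed after adjustment, and with so few libraries none could unless at least 5 of them reached the smallest p.

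The ratio Gria4/Gria1 was added after the values of both genes had been seen and is given without a test. It was 1.35, 1.38, 1.33 and 1.53 in the dorsal libraries D1, V1, D2 and V2 and 0.882, 0.916, 0.801 and 1.05 in the ventral libraries D3, V3, D4 and V4. The log2 difference was −0.62, and omitting any of the 8 libraries gave between −0.69 and −0.56.

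The NMDA receptor genes showed no called difference between the regions. Grin1 encodes GluN1, required in every NMDA receptor, and was measured at 62.0, 60.2, 69.9 and 69.3 FPKM in the dorsal libraries D1, V1, D2 and V2 and at 57.2, 53.0, 65.8 and 62.1 FPKM in the ventral libraries D3, V3, D4 and V4. The limma fold change was −0.13 with a 95% interval of −0.32 to 0.05 (adjusted p = 0.490). Grin2a encodes GluN2A, which gives fast-decaying currents and increases during postnatal development, and was measured at 26.5, 26.2, 23.7 and 23.9 FPKM in D1, V1, D2 and V2 and at 20.98, 25.1, 20.8 and 17.3 FPKM in D3, V3, D4 and V4. The ventral library V3 lay within the dorsal range, while the other 3 ventral libraries lay below it. The limma fold change was −0.25 with a 95% interval of −0.48 to −0.03, with an unadjusted p of 0.0307 that did not pass adjustment (adjusted p = 0.247).

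Grin2b encodes GluN2B, which gives slower currents, and was measured at 87.2, 74.9, 72.6 and 69.5 FPKM in the dorsal libraries D1, V1, D2 and V2 and at 81.1, 83.4, 64.1 and 68.1 FPKM in the ventral libraries D3, V3, D4 and V4. The limma fold change was −0.04 with a 95% interval of −0.27 to 0.19 (adjusted p = 0.901), and its sign turned to 0.03 when either D1 or D4 was left out. The ratio Grin2a/Grin2b was 0.303, 0.350, 0.327 and 0.343 in D1, V1, D2 and V2 and 0.259, 0.301, 0.324 and 0.253 in D3, V3, D4 and V4. Its means were 0.331 ± 0.0207 and 0.284 ± 0.0340, a log2 difference of −0.22 (exact permutation p = 0.0571, adjusted 0.152). The ventral library D4 was within the dorsal range.

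The remaining NMDA receptor genes were less abundant. Grin2c, encoding GluN2C, a subunit with weak magnesium block, was measured at 1.66, 2.30, 2.03 and 2.06 FPKM in the dorsal libraries D1, V1, D2 and V2 and at 1.67, 1.73, 2.16 and 1.65 FPKM in the ventral libraries D3, V3, D4 and V4 (limma adjusted p = 0.708). Grin2d, encoding GluN2D, which gives the slowest currents of the GluN2 subunits, was measured at 0.689, 0.948, 1.65 and 1.30 FPKM in D1, V1, D2 and V2 and at 1.56, 1.05, 1.84 and 1.37 FPKM in D3, V3, D4 and V4 (limma adjusted p = 0.607). The log2(V/D) of Grin2d was 0.34 and its limma fold change, on the log2(FPKM + 1) scale, was 0.20 with an interval of −0.15 to 0.56. Its libraries overlapped, and the fold change was 0.10 without D1, 0.13 without D4 and 0.31 without D2. The limma interval of Grin2c was −0.34 to 0.13, so that for both genes a difference of over 20% was not left out. Grin3a encodes GluN3A, which reduces calcium permeability and magnesium block, and was measured at 19.2, 16.6, 15.4 and 15.2 FPKM in D1, V1, D2 and V2 and at 18.3, 17.7, 17.7 and 17.1 FPKM in D3, V3, D4 and V4. Its ventral libraries lay within the dorsal range, with a limma fold change of 0.09 and a 95% interval of −0.08 to 0.27 (adjusted p = 0.628).

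The largest shares of the Grin pool, those of Grin2b and Grin1, were close between the regions. The sum of the 6 Grin genes was 186 ± 7.52 FPKM in dorsal and 176 ± 6.91 FPKM in ventral MEC, of which Grin2b made up 40.8% ± 2.62 and 42.1% ± 3.99 and Grin1 made up 35.2% ± 3.34 and 33.99% ± 4.33. Grin2a made up 12.8% to 14.5% in dorsal and 10.3% to 13.8% in ventral libraries, with means of 13.5% and 11.9%. Grin3a was 8.28% to 9.72% of the sum in dorsal and 9.75% to 10.2% in ventral libraries, which did not overlap, but the highest dorsal and lowest ventral shares nearly met and this share was not among the values tested. Grin3a/Grin1 was 0.256 ± 0.0441 and 0.300 ± 0.0326 (exact permutation p = 0.143, adjusted 0.229). The summed Grin2 genes over Grin1 gave 1.61 ± 0.232 and 1.68 ± 0.355 (exact permutation p = 0.771, adjusted 0.882), and Grin2c with Grin2d over Grin2a with Grin2b gave 0.0317 ± 0.00777 and 0.0349 ± 0.00906 (exact permutation p = 0.657, adjusted 0.876). The summed Grin genes over the summed Gria genes were 0.481 ± 0.0312 in dorsal and 0.434 ± 0.0283 in ventral libraries (exact permutation p = 0.0857, adjusted 0.171).

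**Figure D4:**
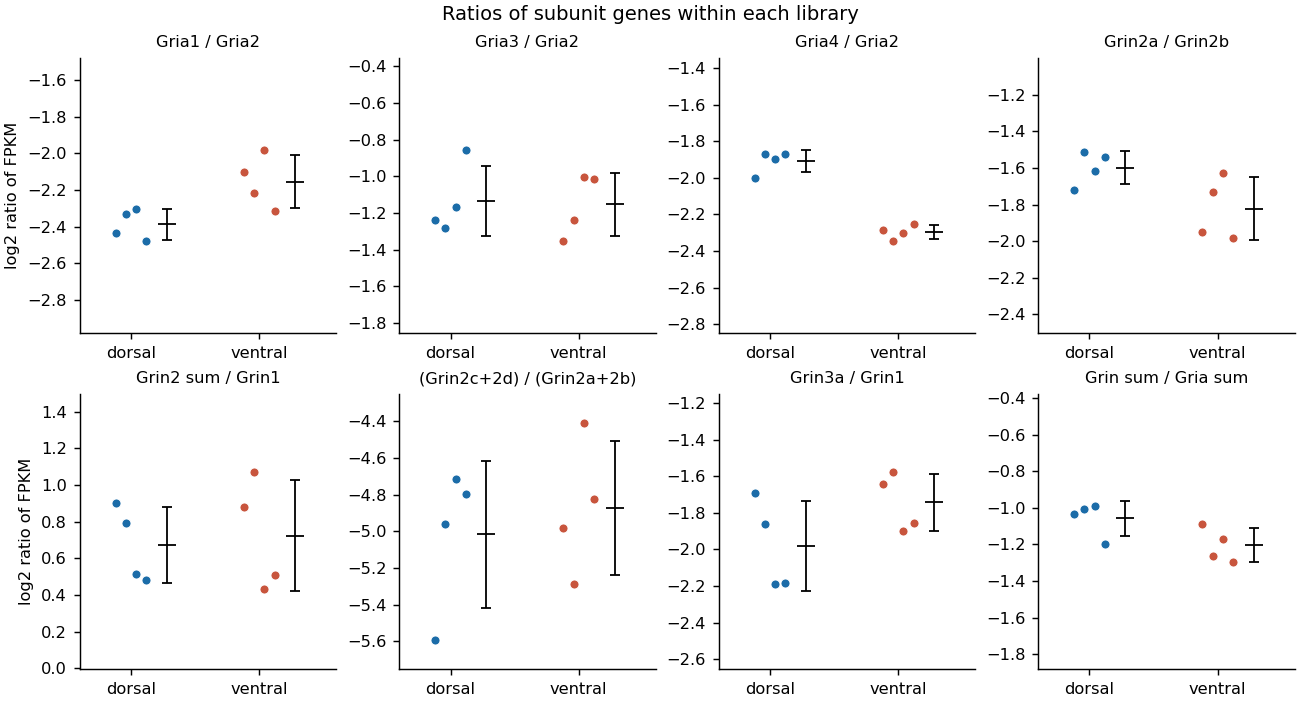
Log2 ratios of subunit gene FPKM within each library (y axis, spanning the same number of log2 units in each panel) for dorsal and ventral libraries (x axis). Points are libraries and bars are mean ± SD. The regions are separate only for Gria4/Gria2, whose 4 ventral libraries lie below the 4 dorsal libraries.

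Genes that assemble, modify or accompany AMPA receptors were compared in the same fit. Of 25 such genes 21 were tested, and 3 were D>V and 2 were V>D, which is 23.8% called beside 3.60% of all genes. An unadjusted p below 0.05 was found for 11 of the 21, beside 16.0% of all genes tested. The median log2(V/D) of the list was 0.07. Gsg1l, an auxiliary subunit of AMPA receptors, was 18.0, 22.7, 22.7 and 21.8 FPKM in the dorsal libraries D1, V1, D2 and V2 and 28.8, 36.4, 33.6 and 31.3 FPKM in the ventral libraries D3, V3, D4 and V4, a log2(V/D) of 0.61 (limma adjusted p = 0.00779). It had the largest ratio of the called genes in the list, and its call was kept without each library in turn. Nptxr, a neuronal pentraxin receptor that clusters AMPA receptors, rose from 38.0 ± 2.19 FPKM in dorsal to 51.6 ± 5.35 FPKM in ventral MEC, a log2(V/D) of 0.44 (limma adjusted p = 0.0185). Its call was lost without D1, V1 or D3, with limma adjusted p between 0.0539 and 0.0658.

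The 3 genes of this list higher in dorsal MEC included Adarb1, whose product edits the Gria2 codon shown above. Adarb1 was 28.7, 27.2, 27.4 and 27.8 FPKM in the dorsal libraries D1, V1, D2 and V2 and 22.9, 23.2, 21.2 and 20.002 FPKM in the ventral libraries D3, V3, D4 and V4, a log2(V/D) of −0.35 (limma adjusted p = 0.0175). Its call was lost without D1 or V1 (limma adjusted p = 0.0538 and 0.0551) and after rescaling to the same total FPKM (limma adjusted p = 0.111). Cnih3, a cornichon protein that accompanies AMPA receptors from the endoplasmic reticulum and slows their closing, was 40.2 ± 2.48 FPKM in dorsal and 32.2 ± 1.91 FPKM in ventral MEC (log2(V/D) −0.32, limma adjusted p = 0.0336). Olfm3, a secreted olfactomedin-domain protein that binds AMPA receptors, was 14.5 ± 1.17 and 10.7 ± 1.30 FPKM (log2(V/D) −0.44, limma adjusted p = 0.0371). The call of Cnih3 was kept only without D1 or V4 and that of Olfm3 only without V3, and otherwise limma adjusted p without a library reached 0.102 for Cnih3 and 0.105 for Olfm3. Both calls were also lost with every gene above 0 FPKM in the fit (limma adjusted p = 0.0510 and 0.0778), and that of Olfm3 after rescaling to the same total FPKM (limma adjusted p = 0.127). Cacng7 and Cacng8, auxiliary subunits of the TARP family, are listed at 0 for every library in the deposited table and were not tested. Whether the 2 genes are unexpressed or were not quantified cannot be told from these values.

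The scaffolds of the postsynaptic density, which anchor AMPA and NMDA receptors, were compared in the same way. Of 27 scaffold and trafficking genes 26 were tested, and 1 was D>V and 0 were V>D by limma, with a median log2(V/D) of 0.02. The share called, 3.85%, was near the 3.60% of all genes. Of the 26, 3 had an unadjusted p below 0.05, which 16.0% of all genes tested had. The gene called was Homer1, which links metabotropic glutamate receptors to Shank scaffolds and has a short form induced by activity. Homer1 was 48.0, 40.0, 34.4 and 40.1 FPKM in the dorsal libraries D1, V1, D2 and V2 and 31.3, 31.1, 24.2 and 28.1 FPKM in the ventral libraries D3, V3, D4 and V4, a log2(V/D) of −0.50 (limma adjusted p = 0.0403). Its call was kept only without D2 or V3, and otherwise limma adjusted p without a library lay between 0.0658 and 0.106. After rescaling to the same total FPKM its limma adjusted p was 0.0956.

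Among 19 genes for NMDA receptor co-agonists, their transport and the kinases and phosphatases that act on the receptor, 16 were tested, 1 was D>V and 0 were V>D by limma (5 at an unadjusted p below 0.05, which 16.0% of all genes tested had). The share called was 6.25% beside 3.60% of all genes, and the median log2(V/D) was −0.14. Slc6a9, the glycine transporter GlyT1, which lowers glycine around NMDA receptors, was 12.03, 12.2, 14.7 and 13.2 FPKM in the dorsal libraries D1, V1, D2 and V2 and 8.18, 8.36, 10.1 and 9.68 FPKM in the ventral libraries D3, V3, D4 and V4, a log2(V/D) of −0.52 (limma adjusted p = 0.0163). Its call was lost without D3 (limma adjusted p = 0.0571). Grin3b, the second GluN3 gene, was too low to be tested, with means of 0.0694 and 0.0967 FPKM.

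Of 13 genes for the synthesis, release and uptake of glutamate, 11 were tested. Of the 11, 9 had a negative log2(V/D), and 1 was called, as D>V. An unadjusted p below 0.05 was found for 6 of the 11, beside 16.0% of all genes tested. The share called was 9.09% beside 3.60% of all genes, and 51.2% of all genes had a negative log2(V/D). Their median log2(V/D) was −0.18. Slc17a6, the vesicular glutamate transporter VGLUT2, found in many subcortical projections to the cortex and in some cortical neurons, was 10.7, 10.5, 11.1 and 10.8 FPKM in the dorsal libraries D1, V1, D2 and V2 and 7.65, 7.25, 6.54 and 7.40 FPKM in the ventral libraries D3, V3, D4 and V4. This was a log2(V/D) of −0.58 (limma adjusted p = 0.00235), and its call was kept without each library in turn. Over the 4 lists, 74 of 84 genes were tested and 8 were called, 6 as D>V and 2 as V>D, which is 10.8% beside 3.60% of all genes. The lists were drawn up with earlier results of these data known, so these shares are a description.

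**Figure D5:**
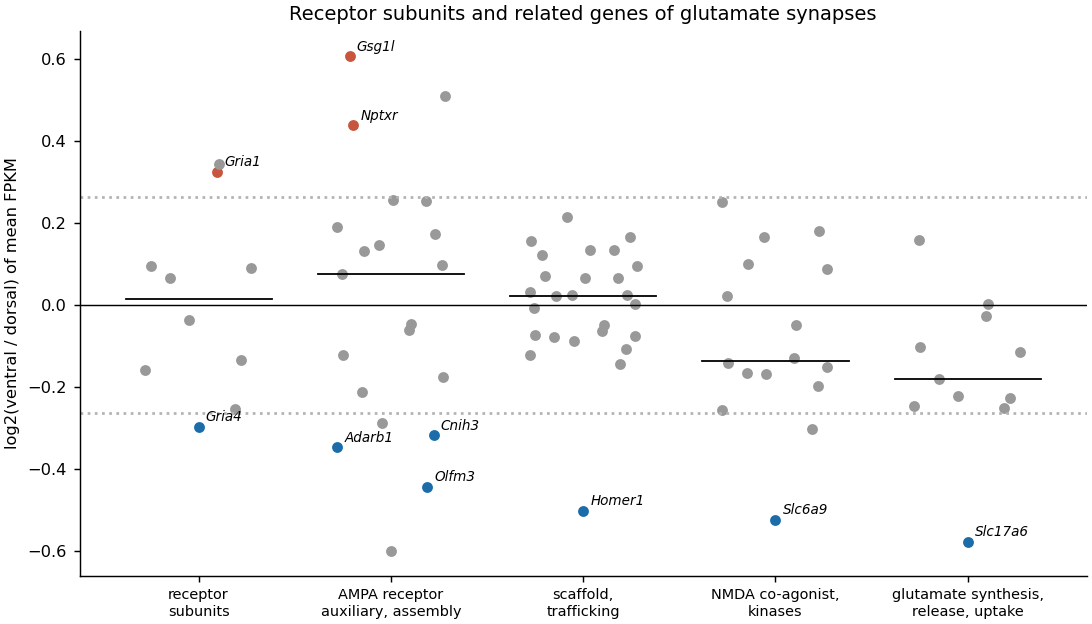
Log2(V/D) of mean FPKM (y axis) of the 10 subunit genes and of the tested genes of 4 lists of related genes (x axis). Points are genes, named and coloured where called (D>V in blue, V>D in red), black bars are medians and dotted lines mark a 20% difference. The called genes of the AMPA receptor list lie on both sides of 0, and those of the other 3 lists, Homer1, Slc6a9 and Slc17a6, lie below 0.

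The genes whose values followed those of Gria1 and Gria4 most closely were found by Pearson's correlation of log2(FPKM + 1) over the 8 libraries, which share their region and pool, so that this is a description. For Gria1 they were the L-type calcium channel gene Cacna1c (r = 0.984), the insulin-like growth factor binding protein gene Igfbp2 (r = 0.980) and Ngef (r = 0.974), with 98 genes above 0.9. Of these 3, Igfbp2 was called V>D, with a log2(V/D) of 0.40. For Gria4 they included Zdhhc21 (r = 0.990) and the potassium channel gene Kcnq5 (r = 0.986), with 212 genes above 0.9. Kcnq5 was called D>V, with a log2(V/D) of −0.45.

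The loci of Gria1 and Gria4 are given above. On GRCm38, Gria2 lies at chr3:80684936-80802791 on the minus strand and Gria3 at chrX:41400854-41678601 on the plus strand. Grin1 lies at chr2:25291181-25319187, Grin2a at chr16:9577710-9994921, Grin2b at chr6:135729826-136175664, Grin2c at chr11:115249169-115267243, Grin2d at chr7:45831883-45870928 and Grin3a at chr4:49661611-49845744, all on the minus strand. Grin1, Grin2b, Grin2c and Grin2d each share exonic bases with at least 1 gene of the opposite strand. Gria2, Gria3 and Gria4 each share exonic bases with 1 gene of the same strand. Whether strand was used in counting is not given in the sources used here, so fragments of such partners may be included in the FPKM of these genes. Gria1, Grin2a and Grin3a overlap the exons of no other annotated gene.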

How the data were processed

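RNA-Seq was performed on 4 dorsal and 4 ventral MEC pools. The authors demultiplexed reads with CASAVA 1.8, aligned them with TopHat2 2.0.8 to GRCm38 and obtained FPKM per gene and library from Cuffdiff, which scales libraries to each other. The deposited FPKM values were analysed here. The deposited comparison table was used for its condition means and testing status, and its fold changes and p-values were not used. The 4 columns of per-sample values in a fragment table were not used, since its rows name a condition and a replicate and no sample. A count test between the conditions would not need that match, but was not run. Fragment totals were not used, and precision comes from the spread between pools.

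The test covered the 13674 genes that had testing status OK and averaged 1 FPKM or more. It was limma (version 3.58.1, R 4.3.3), two-sided, on log2(FPKM + 1), and its variance prior followed the mean level. Fold changes on this scale understate the change of low genes. Calls required a p below 0.05 after Benjamini-Hochberg adjustment, together with mean FPKM that differed by more than 0.263 on the log2 scale. Within-library ratios were compared by exact permutation, adjusted over 8 ratios. Each group of mice gave a dorsal and a ventral pool, but which columns belong to the same group is not given, so the comparison was unpaired.

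Named genes were the 10 subunit genes, up to 3 called genes per direction of 4 lists of related genes, the 3 genes most correlated with each called subunit gene, and markers. Of the genes this rule takes, 1 is not reported here. The members and lists were chosen with earlier results of these data known. The 12 marker lists covered glutamatergic, GABAergic, parvalbumin, somatostatin and VIP neurons, astrocytes, oligodendrocytes and their precursors, microglia, endothelial cells, MEC layer II, cerebellar granule cells, and dentate gyrus with CA1. Alternatives covered the constant, the FPKM filter, scaling, sample weights, the ratio threshold, the regions of the headers and each library left out. Plots used matplotlib 3.10.9 in Python 3.11.15, with NumPy 2.4.6 and pandas 2.3.3. Gene spans are the deposited loci with 1 added to the start. Strands, exon overlaps and the positions of the sequence windows are from GENCODE M21. The start given in the deposited table plus 1 equals the GENCODE start for 20363 of 36638 shared genes, against 360 without the 1.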

Additional observations from a re-analysis of the deposited data

Results flagged for a closer look

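The values of each subunit gene and ratio within each region, 38 groups of 4 libraries, were examined for a library far from the others. Grin2c was 2.16 FPKM in the ventral library headed D4 and 1.65 to 1.73 FPKM in the other 3 ventral libraries, a gap of 0.842 of the group's range. Chance flags about 1 in 20 groups, and 1 of the 38 was flagged here.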

How the results depend on the processing

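The direction of Gria1 and Gria4 was kept under all 7 other processing choices and without each library in turn. Both were called under all of these choices except rescaling to the same total FPKM, where 0 subunit genes were called. Without each library in turn, 0 to 1 subunit genes were called, of 248 to 532 genes in all against 492, with 248 without V1, 254 without D3 and 327 without D2 or V2. Over these left-out libraries the AMPA receptor list gave 2 to 5 calls, the scaffold list 0 to 1, the NMDA co-agonist list 0 to 1 and the glutamate list 1 to 2. Rescaling gave 3 calls in the AMPA receptor list and 0 in the scaffold list. With every gene above 0 FPKM there were 3 and 0, and 2 in the glutamate list. Quantile normalization gave 0 in the scaffold list.

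With the regions the headers name, 1 gene was called by limma (721 at an unadjusted p below 0.05), 0 of them subunit genes or genes of the 4 lists. The limma fold changes that reversed were −0.070 for Gria1, 0.094 for Gria4, 0.026 for Grin2c, −0.14 for Grin2d, −0.073 for Grin3a, 0.015 for Cnih3, −0.10 for Nptxr, 0.039 for Homer1 and 0.0031 for Slc17a6. The log2 ratios that reversed were −0.13 for Gria1/Gria2, 0.093 for Gria3/Gria2, 0.036 for Gria4/Gria2, 0.17 for Gria4/Gria1, 0.036 for Grin2a/Grin2b, −0.041 for the summed Grin2c and Grin2d over Grin2a and Grin2b, and −0.014 for Grin3a/Grin1. The 4 libraries on which headers and means name the same region gave 0 calls by limma in all genes (1240 at an unadjusted p below 0.05), and 0 in the subunit genes and each list. These fits have fewer libraries or other regions, and the cause of the other lost calls was not tested. The same alternatives were applied to the 4 lists and to Gria4/Gria1 after seeing the data. Grin2b reversed to 0.027 without D1 and to 0.027 without D4. No paired analysis was run, because the columns do not give the group of mice a library came from. Fragment totals were not used, which limits what can be said of Grin2c and Grin2d.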

Other observations

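The summed Grin2 genes over Grin1 took similar values in libraries of both regions. The ratio was 1.87 and 1.73 in the dorsal libraries D1 and V1 and 1.84 and 2.10 in the ventral libraries D3 and V3. It was 1.43 and 1.40 in the dorsal libraries D2 and V2 and 1.35 and 1.42 in the ventral libraries D4 and V4. This was noticed after the values had been seen and was not tested, and the group of mice each library came from is not given.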
